A study of Mus musculus with 8 samples.

Results

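The genes described here are 10 enzymes of de novo purine and pyrimidine synthesis, Cad, Dhodh, Umps, Prps1, Ppat, Gart, Pfas, Paics, Atic and Impdh2, in lactating mouse mammary glands with and without the transcription factor Th-POK. They were chosen by name, as the genes of these pathways, with earlier results of these data known. Each was found through the accession of its probes. All 10 were represented, by 19 probes, and all 10 were among the 14137 genes tested. Mammary glands came from wild-type (WT, n = 4) and Th-POK knockout (KO, n = 4) dams of the C57/Bl6 strain at lactation day 1, and the total RNA of each gland sample was hybridized to a 1-colour Agilent array of its own. The knockout is labelled only as Th-POK-deficient. The construct, any promoter or Cre behind it and the age of the dams at sampling are not given in the sources used here. Values are log2 of the background-subtracted brightness of a probe after quantile normalization, so a difference of 1 is a 2-fold change, and the values of different probes cannot be ranked against each other.

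Cells make purines and pyrimidines for RNA, DNA and nucleotide cofactors from amino acids, carbon units carried by folate and the activated ribose PRPP. The pyrimidine ring is built first and then joined to PRPP, whereas the purine ring is assembled on PRPP step by step until inosine monophosphate (IMP) is formed, from which AMP and GMP are made. In the mammary gland, nucleotides serve the RNA of cells that secrete large amounts of milk protein and the DNA of cells that still divide, and the uridine nucleotide UDP-galactose is a substrate for lactose.

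Transcripts of the synthesis enzymes were lower in KO than in WT glands for 9 of the 10 genes, where 52.4% of all genes were lower. By limma with Benjamini-Hochberg adjustment over all genes tested, 7 fell past an adjusted p of 0.05 (Cad, Prps1, Ppat, Gart, Pfas, Atic and Impdh2), none rose, and 3 did not pass (Dhodh, Umps and Paics). Across all 14137 genes, 8.96% fell and 7.53% rose by the same test. The median difference of the 10 enzymes was -0.64 (log2, KO minus WT), against -0.024 over all genes. For 8 of the 10, every KO array was below every WT array, which held for 12.9% of all genes. The range was from -1.07 for Cad to 0.12 for Paics. Because the 10 genes were chosen with earlier results known, the shares over all genes stand beside them as a description, not a test. The methods call the replicates biological and independent, and the arrays measure transcripts, not enzyme activity.

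**Figure D1:**
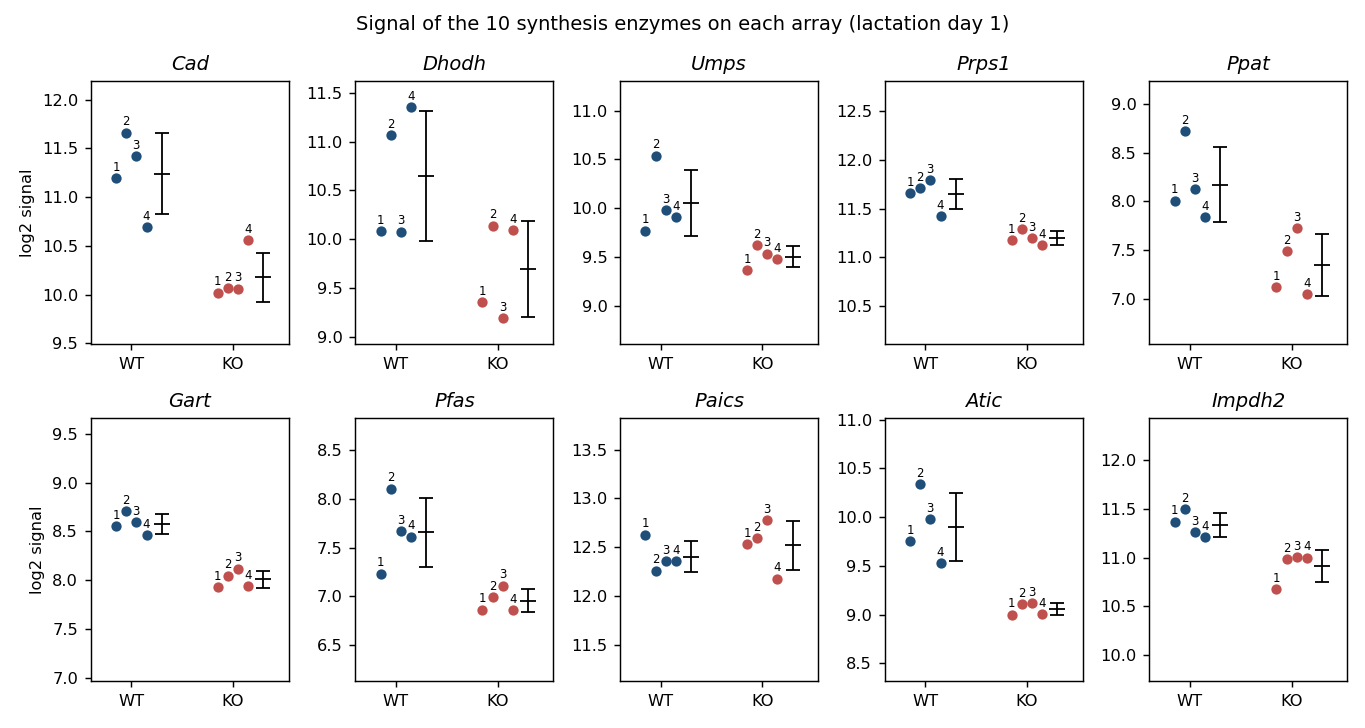
Log2 signal of each of the 10 enzymes on the 4 WT and 4 KO arrays at lactation day 1. Points are arrays with their replicate number, and the bar beside them is the mean with the SD. Every panel spans the same range of log2 units. The KO arrays lie below all WT arrays for 8 genes, the exceptions being Dhodh and Paics.

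The check of the labels came from Zbtb7b, the gene that encodes Th-POK. Its signal was 9.90, 10.42, 10.13 and 10.23 on the WT arrays and was not well above background on any KO array. The share of probes well above background was 66.8% to 75.3% per array. The arrays lay on 2 slides, each with a single genotype, so slide and genotype cannot be told apart for any value below. Luminal markers and milk protein genes were above background on all arrays, as the labelled tissue has. The RNA came from whole glands, in which fewer cells of a type and less RNA per cell cannot be told apart.

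Pyrimidine synthesis begins with Cad, a single large protein that carries the carbamoyl phosphate synthetase, aspartate transcarbamylase and dihydroorotase activities. Its signal was 11.19, 11.66, 11.42 and 10.69 in the WT glands and 10.02, 10.06, 10.06 and 10.56 in the KO glands. The groups did not overlap, but replicate 4 of each genotype lay close to the other group. Cad fell by 1.07 (SE 0.22, 95% interval -1.56 to -0.57, limma adjusted p = 0.0201), which is 2.09-fold. All 4 probes of Cad moved the same way, from -1.07 to -0.69, and each passed an adjusted p of 0.05 among the 20838 probes tested. Taken within each replicate number, KO minus WT was -1.17, -1.60 and -1.36 for numbers 1 to 3 and -0.13 for number 4.

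Dhodh, the enzyme of the inner mitochondrial membrane that oxidizes dihydroorotate to orotate, varied most. It measured 10.09, 11.07, 10.08 and 11.36 in WT and 9.36, 10.14, 9.19 and 10.09 in KO glands. Replicates 2 and 4 were the higher ones in both genotypes, and the KO samples of these numbers overlapped the WT samples of numbers 1 and 3. The difference was -0.95 (SE 0.36, interval -1.77 to -0.14, limma adjusted p = 0.0934). When replicate number entered the fit as a block, the adjusted p of this difference was 0.0132. Within the 4 numbers it was -0.73, -0.93, -0.89 and -1.27.

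Umps joins orotate to PRPP and decarboxylates the product to UMP, the first pyrimidine nucleotide. The WT glands measured 9.77, 10.54, 9.98 and 9.91, and the KO glands 9.37, 9.62, 9.53 and 9.47. No KO gland reached the lowest WT gland, but WT replicate 2 stood above the other 3 WT samples. The difference was -0.55 (SE 0.17, interval -0.93 to -0.16, limma adjusted p = 0.0566, and 0.0385 with the replicate block). Its second probe gave -0.61. Later enzymes of the pathway, Ctps and Ctps2, which turn UTP into CTP, had the opposite sign, at 0.31 (adjusted p = 0.155) and 0.39 (adjusted p = 0.0803).

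Prps1 makes PRPP, the ribose donor that both pathways use. It measured 11.66, 11.71, 11.79 and 11.43 in WT and 11.18, 11.29, 11.20 and 11.13 in KO glands. The spread within each genotype was small (SD 0.157 in WT and 0.0686 in KO, n = 4 each) and the groups did not overlap. Prps1 fell by 0.45 (SE 0.11, interval -0.70 to -0.21, limma adjusted p = 0.0290), or 1.37-fold, and its second probe fell by 0.42. The isozyme Prps2 differed by -0.49 with a wider spread (SE 0.23, adjusted p = 0.162). The associated proteins Prpsap1 and Prpsap2, which bind the synthetase, differed by -0.096 and -0.058.

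Ppat, the glutamine amidotransferase that commits PRPP to purines, is the regulated entry of the purine pathway. The WT values were 8.01, 8.72, 8.13 and 7.83, and the KO values 7.12, 7.49, 7.72 and 7.05. The nearest samples of the groups, WT replicate 4 and KO replicate 3, were little apart. Ppat fell by 0.83 (SE 0.22, interval -1.33 to -0.32, limma adjusted p = 0.0398), or 1.77-fold. The second probe fell by 1.05.

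Gart carries out several of the steps after Ppat in a single protein and takes a formyl group from folate. Its values were among the tightest of the set, 8.55, 8.71, 8.60 and 8.46 in WT and 7.92, 8.05, 8.12 and 7.94 in KO glands. Every KO gland lay clearly below every WT gland. Gart fell by 0.57 (SE 0.10, interval -0.80 to -0.35, limma adjusted p = 0.0135), or 1.49-fold. It was the only member called under all 16 alternative settings, which included leaving out each array in turn. Gart was represented by a single probe, so the mean of a gene's probes gave the same difference and could not test its call.

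Pfas adds a further nitrogen from glutamine. It measured 7.23, 8.11, 7.67 and 7.61 in WT and 6.864, 6.996, 7.109 and 6.860 in KO glands. WT replicate 1 was the lowest of its group and close to KO replicate 3, while the KO samples were close together. Pfas fell by 0.70 (SE 0.18, interval -1.10 to -0.29, limma adjusted p = 0.0342), or 1.62-fold. Its second probe fell by 0.99.

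Paics, a bifunctional enzyme that adds a carboxyl group and then aspartate to the growing ring, did not share this pattern. The WT glands measured 12.63, 12.26, 12.36 and 12.36, and the KO glands 12.53, 12.59, 12.78 and 12.18. The groups overlapped throughout, with the highest and the lowest value both in KO glands. The difference was 0.12 (SE 0.15, interval -0.22 to 0.46, limma adjusted p = 0.596), so that a fall larger than 0.22 lay outside the interval. The second probe gave 0.065. Adsl, which releases fumarate in the following step and again on the way to AMP, fell by 0.54 (SE 0.13, adjusted p = 0.0324).

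Atic, also bifunctional, takes a second formyl group from folate and closes the ring to give IMP. The WT values were 9.75, 10.34, 9.98 and 9.53, and the KO values 8.9995, 9.1037, 9.1146 and 9.0038. The 4 KO glands were nearly alike (SD 0.0622), and all were well below the lowest WT gland. Atic fell by 0.84 (SE 0.17, interval -1.23 to -0.46, limma adjusted p = 0.0186), or 1.80-fold.

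Impdh2 oxidizes IMP and thereby turns it towards GMP. It measured 11.37, 11.50, 11.26 and 11.21 in WT glands and 10.674, 10.986, 11.001 and 10.999 in KO glands. The KO values of replicates 2 to 4 were almost equal and replicate 1 was lower. Impdh2 fell by 0.42 (SE 0.12, interval -0.69 to -0.15, limma adjusted p = 0.0434, and 0.0618 with the replicate block), or 1.34-fold. Its second probe gave -0.40 (adjusted p = 0.0924), and the call held in 4 of the 16 alternatives. Without KO replicate 1 the difference was -0.34 with an adjusted p of 0.0965. The isozyme Impdh1 differed by -0.30 (adjusted p = 0.242), and the next enzyme to GMP, Gmps, fell by 0.66 (SE 0.09, adjusted p = 0.00816). The enzymes that start the branch to AMP, Adss and Adssl1, differed by 0.17 each (adjusted p = 0.295 and 0.352). The difference between the branches was not tested.

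**Figure D2:**
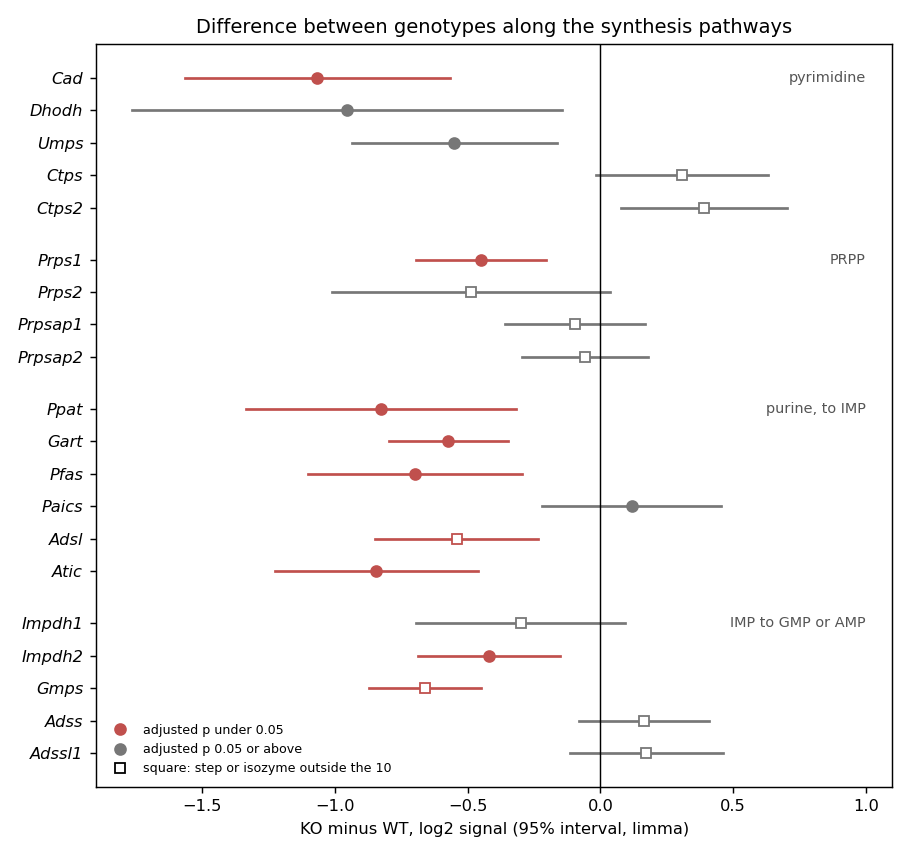
Difference between KO and WT glands (log2 signal, limma) for the 10 enzymes, drawn as circles, and for the other steps and isozymes, drawn as squares, in the order of the pathways. Lines are 95% intervals, and red marks an adjusted p under 0.05. Of the 10 other steps, 2 fell (Adsl and Gmps), and the interval of Paics includes 0.

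Among the 10 other steps and isozymes 2 fell and none rose, and their median was -0.077, against -0.64 for the 10 members. Whether the lists differ was not tested. Pairs of enzymes were also compared within each array. A change of such a ratio between genotypes shows that the genes of the pair changed unequally. Each ratio was tested by permuting the genotypes exactly and two-sided, and with 70 relabelings p cannot be smaller than 0.0286. The ratio of Ppat to Paics was lower by 0.94 in KO glands (log2, SD 0.488 in WT and 0.159 in KO, n = 4 each) without overlap, at this smallest exact p = 0.0286. Adjusted over the 6 pairs compared, the exact p was 0.171, so none of the pairs passed. A pair that is alone at the smallest p cannot pass this adjustment with so few arrays. The adjusted p of Ppat to Paics thus does not show that the genes changed equally. The ratio of Cad to Umps was lower by 0.52 (exact p = 0.0571, adjusted 0.171) and that of Dhodh to Umps by 0.40 (exact p = 0.343). Cad to Dhodh, Impdh2 to Impdh1 and Prps1 to Prps2 differed by -0.11, -0.12 and 0.036, with exact p from 0.629 to 0.857.

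Ppat and Paics are direct neighbours. In the annotation of build GRCm38.p6, Ppat runs on the minus strand of chromosome 5 from 76913249 to 76951578, and Paics on the plus strand from 76951302 to 76967509, so that their first 277 bases overlap head to head. The 250 bases before each start are shown because the genes are neighbours, and those of Atic and Impdh2 because they hold the same motif as Paics. All are RefSeq sequence of GRCm38.p6, 5′ to 3′ on the strand of the gene, at chr5:76951579-76951828 (Ppat, minus), chr5:76951052-76951301 (Paics, plus), chr1:71556906-71557155 (Atic, plus) and chr9:108560186-108560435 (Impdh2, plus). Capitals mark CACGTG, the E-box that factors of the Myc family can bind.
Ppat: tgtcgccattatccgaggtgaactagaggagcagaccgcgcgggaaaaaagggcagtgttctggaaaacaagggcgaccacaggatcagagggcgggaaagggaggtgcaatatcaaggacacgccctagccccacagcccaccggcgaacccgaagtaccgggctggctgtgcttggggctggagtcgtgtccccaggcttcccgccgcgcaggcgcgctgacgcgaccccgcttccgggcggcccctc
Paics: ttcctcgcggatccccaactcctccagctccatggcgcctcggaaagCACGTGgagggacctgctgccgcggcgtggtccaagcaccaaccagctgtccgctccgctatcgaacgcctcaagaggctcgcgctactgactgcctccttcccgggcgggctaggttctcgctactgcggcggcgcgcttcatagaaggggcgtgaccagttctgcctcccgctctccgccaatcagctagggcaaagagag
Atic: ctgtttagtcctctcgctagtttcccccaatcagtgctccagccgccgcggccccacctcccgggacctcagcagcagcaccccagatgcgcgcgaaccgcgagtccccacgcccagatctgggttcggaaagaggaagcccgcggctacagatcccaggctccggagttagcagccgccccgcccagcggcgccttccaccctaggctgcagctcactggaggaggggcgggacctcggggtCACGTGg
Impdh2: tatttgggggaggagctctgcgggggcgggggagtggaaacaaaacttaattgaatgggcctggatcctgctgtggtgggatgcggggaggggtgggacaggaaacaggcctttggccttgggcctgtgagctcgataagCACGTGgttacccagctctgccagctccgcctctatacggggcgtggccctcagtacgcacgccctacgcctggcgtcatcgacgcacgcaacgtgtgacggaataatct
The motif began 203 bases before the start of Paics, 110 before that of Impdh2 and 7 before that of Atic. A window of 300 bases, from 250 before to 50 after the start, was given for 8 of the 10 members. CACGTG, which reads alike on both strands, was in 3 of these 8, against 7.15% of 32851 windows of the same length. Of its 3 holders, Atic and Impdh2 fell and Paics did not. The motif before Paics also lies within the annotated Ppat gene, beyond the 50 bases after the Ppat start that its window held. Ppat, counted here as without the motif, fell, so this comparison depends on where the windows end. The motif TGATGNAA, a form bound by ATF4 with a C/EBP partner, was sought on both strands and was in 1 of the 8 (Prps1), against 3.97% of all windows. A match is a description of the letters in a window and not a site.

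Among 14 candidate regulators of these enzymes, 1 fell and none rose, with a median of -0.070. This share was near the 8.96% that fell over all genes. Mlx, a partner of the glucose-sensing factors that bind E-box-like elements, fell by 0.67 (SE 0.18, adjusted p = 0.0403), although KO replicate 4 reached the WT range. Myc, chosen after its value was seen, was 11.39, 11.32, 11.15 and 10.87 in WT and 11.45, 11.43, 11.42 and 11.63 in KO glands. Every KO value was above every WT value, which held for 11.1% of all genes, and the difference of 0.30 did not pass the test (adjusted p = 0.140). Mapk3, an ERK kinase, had 0.81 (adjusted p = 0.0665), and the S6 kinase genes Rps6kb1 and Rps6kb2 had -0.39 (adjusted p = 0.0789) and -0.27 (adjusted p = 0.0925).

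Beyond the 10 members, 59 of 68 listed genes of nucleotide metabolism were tested, of which 12 fell and 1 rose. They include the 10 other steps and isozymes of synthesis given above, with Adsl and Gmps among the 12 that fell. Over all genes, 8.96% fell and 7.53% rose. Among 14 nucleoside phosphate kinases, which carry monophosphates to di- and triphosphates, 5 fell and none rose (median -0.15). Among these were Nme6 (-1.17, adjusted p = 0.00985), Nme1 (-1.03, 0.0248), Cmpk2 (-0.73, 0.0223) and Ak6 (-0.48, 0.0220). Of 8 genes of deoxynucleotide synthesis, which supplies DNA, 2 fell and 1 rose (median -0.78). Dut, which removes dUTP, fell by 1.12 (adjusted p = 0.0236) and Dctd, the dCMP deaminase, by 0.90 (adjusted p = 0.0416). Rrm2b, the ribonucleotide reductase subunit that p53 induces, rose by 0.42 (adjusted p = 0.0261), while thymidylate kinase Dtymk had -0.43 (adjusted p = 0.0506).

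Salvage recycles bases and nucleosides in place of new synthesis. Of 12 salvage genes tested, 2 fell and none rose (median -0.33). Mtap, which recovers adenine from methylthioadenosine, fell by 0.83 (adjusted p = 0.0149) and the uridine and cytidine kinase Uck2 by 0.96 (adjusted p = 0.0318). Tk1, the thymidine kinase of dividing cells, had the largest difference of the list but a wide spread, at 7.84, 9.47, 8.84 and 10.74 in WT and 7.99, 7.08, 7.27 and 7.16 in KO glands (-1.85, SE 0.54, adjusted p = 0.0512). Of 15 breakdown genes, 1 fell (the mitochondrial nucleotidase Nt5m, -0.40, adjusted p = 0.0396) and none rose, with a median of -0.053. The share of breakdown genes that fell was near the 8.96% over all genes.

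The precursors of both rings come from folate, amino acid and pentose metabolism. Of 22 such supply genes, 5 fell and none rose (median -0.47). Mthfd2, which makes formyl groups available in mitochondria, fell by 1.40 (SE 0.19, adjusted p = 0.0070). Mthfd1, its cytosolic counterpart and the source of the formyl groups that Gart and Atic use, fell by 1.16 (SE 0.22, adjusted p = 0.0171). Got1, which makes aspartate, fell by 1.14 (adjusted p = 0.0245), and the folate enzyme Aldh1l2 by 0.73 (adjusted p = 0.0289).

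**Figure D3:**
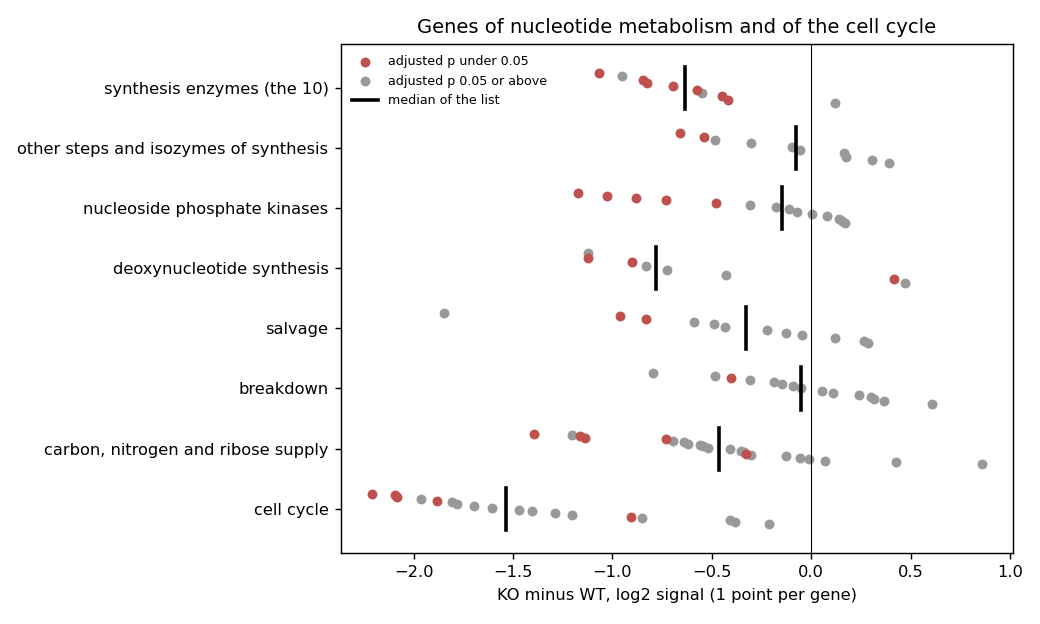
Difference between KO and WT glands (log2 signal, 1 point per gene) for the 10 enzymes, 6 lists of related genes and a cell cycle list. Red marks an adjusted p under 0.05 (limma), and the black bar is the median of the list. The medians run from -0.053 for breakdown to -1.54 for the cell cycle.

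Genes of other cell types and of dividing cells moved between the genotypes as well. All 18 cell cycle genes were lower in KO glands and 5 passed the test, with a median of -1.54. Their summed linear signal was 20190, 42990, 22490 and 61440 in WT and between 15940 and 18690 in KO glands. WT replicates 2 and 4 were thus far above replicates 1 and 3, and the latter were only slightly above the KO range. Averaged after standardizing each gene over the 8 arrays, the 10 enzymes were 0.49, 1.28, 0.64 and 0.32 in WT replicates 1 to 4. They were between -0.98 and -0.45 in KO. The highest WT average was in replicate 2, which had the second highest cell cycle sum. The lowest was in replicate 4, which had the highest sum. By the probe that stood for each gene, Dhodh alone had its 2 highest values in WT replicates 2 and 4. Other probes had this order too: the second of Pfas (5.69, 6.33, 5.72 and 6.29 in WT) and the dimmest of Cad (6.09, 6.88, 6.45 and 6.55). The adjusted p of Dhodh was 0.181 without WT replicate 4 and 0.220 without WT replicate 2.

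Luminal markers were higher in KO glands for 8 of 10 genes, 4 of them past the test, and their summed signal was between 244500 and 298900 in WT and between 317700 and 353200 in KO glands. Milk protein genes had sums of 1494000 to 1634000 in WT and 1518000 to 1766000 in KO, and none was called. Wap, Glycam1, Csn1s1, Csn1s2a and Csn2 were at the bright end of the range. There quantile normalization gives every array nearly the same values, so these sums and calls cannot show whether milk protein RNA changed. Neutrophil markers summed to 67320 to 100700 in WT and 169400 to 270900 in KO, with all 7 tested genes higher and 3 of them past the test. Lactoferrin (Ltf), which milk-secreting epithelium also makes, was 90.3% to 97.6% of these sums, and without it they were 1647 to 7790 in WT and 7929 to 19190 in KO. Ltf was 1 of the 3 genes called. The others, Ngp and Camp, were well above background on 0 WT arrays and on 4 KO arrays. The filter thus kept Ngp and Camp only through the KO group, which fixed their direction. Adipocyte markers summed to 299800 to 415500 in WT and 420700 to 586500 in KO, with 8 of 10 higher and 2 of them past the test. The 9 T cell markers tested were all lower, 2 of them past the test, with sums of 728.3 to 1989 in WT and 769 to 1013 in KO. Fewer markers passed in basal epithelium (1 of 10, lower), B cells (1 of 5, higher), fibroblasts (1 of 10, higher) and erythroid cells (1 of 4, higher), and none in macrophages (9 tested) or endothelium (10 tested). The part of these cell types and of cell division in the difference of the synthesis enzymes was not tested.

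The likeness of the enzymes to each other was described over the 8 arrays, which include the difference between genotypes. Each enzyme was set against the mean of the other 9. Pearson's r was 0.979 for Gart, 0.973 for Atic and 0.958 for Ppat, between 0.872 and 0.928 for Umps, Impdh2, Pfas, Prps1 and Cad, 0.582 for Dhodh and -0.373 for Paics. With the genotype means subtracted, r remained at 0.946 for Ppat, 0.930 for Gart, 0.859 for Atic and 0.854 for Umps. It was 0.725 for Pfas, 0.679 for Impdh2, 0.482 for Prps1, 0.400 for Cad, -0.102 for Dhodh and -0.238 for Paics. Outside the set, the genes nearest to its mean profile were Cul1 (r = 0.992), Wdr12 (0.990), Wdr77, Usp38 and Bccip (0.982 each). Wdr12 fell by 0.81 (adjusted p = 0.0133), whereas Cul1 had a difference of only -0.16 (adjusted p = 0.210).

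When replicate number entered as a block, 8 of the 10 enzymes fell, as Dhodh and Umps passed and Impdh2 did not. Over all genes, the block moved the calls from 1266 to 1525 fallen and from 1065 to 1237 risen. Within the 4 numbers, which no label states to be pairs, 9 enzymes were lower in KO each time, and Paics in 2 of the 4. For 8 of the 9 this follows from groups that did not overlap. The share of all genes lower in every number was not counted. It lies between the 12.9% with all KO arrays below all WT arrays and the 52.4% with a lower mean. The median over the 10 enzymes was -0.66, -0.92, -0.52 and -0.48 for numbers 1 to 4. The number of enzymes called depended on single arrays: it was 1 (Gart) without KO replicate 1 or 3, and 2 (Atic and Gart) without WT replicate 2 or 3 or KO replicate 2. The count was 3 without KO replicate 4, 5 without WT replicate 4 and 7 without WT replicate 1. Over all genes, 1266 fell with all arrays and 249 to 1682 with an array left out. The sign of each of the 10 differences was the same in all 16 alternatives. The replicate block, the methods' t-test, no filter on dim probes and unmatched probes kept left the differences themselves unchanged. The same sign under these settings therefore adds nothing.

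**Figure D4:**
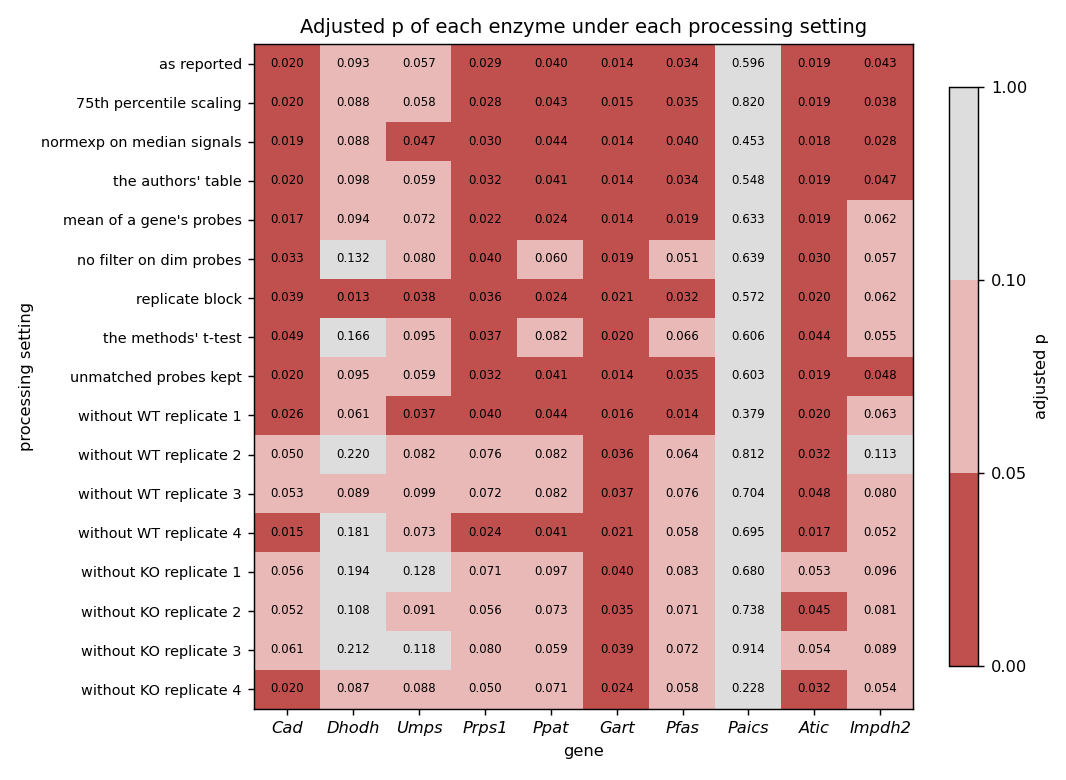
Adjusted p of each enzyme (columns) as reported and under the 16 alternative settings (rows). Dark red marks values under 0.05, light red those from 0.05 to 0.1 and grey those above. Gart is under 0.05 in every row and Paics in none, and most other losses are in rows with 1 array left out.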

How the data were processed

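Total RNA of mammary glands from 4 WT and 4 KO dams was labelled with Cy3 and measured on 8 1-colour Agilent arrays. The genotypes and replicate numbers came from the sample titles. The intensities that the authors deposited were the scanner output of Agilent Feature Extraction 10.7, per the labels, in which background had been subtracted within each array. A series table of log2 values was deposited as well, quantile-normalized by the authors in GeneSpring. Its columns had a median of 6.32 and correlated with the log2 intensity of the same array at r close to 1, so the scale is log2, with no centring by gene. It served as an alternative.

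Processed intensities were log2-transformed and quantile-normalized with limma 3.58.1 in R 4.3.3. Spots that the scanner software marked as outliers were left out (64 to 100 per array), and the other spots of a probe were averaged. Probe accessions were matched to symbols in a RefSeq gene table of GRCm38.p6, in which 27479 of 41174 probes matched 18749 symbols, and only matched probes were tested as genes. Probes were kept if 1 genotype or both had them well above background on each of its 4 arrays. The brightest probe stood for a gene, which gave 14137 genes. Genes were tested with lmFit and eBayes, and p-values were adjusted by the Benjamini-Hochberg method over all genes, with calls at an adjusted p under 0.05. The number of arrays limits the precision. The array design was named by another mouse build than the gene table, so no probe coordinates are given. The procedure was tested on simulated data.

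The members and gene lists were chosen with earlier results of these data known. The genes named are all members, up to 4 genes of each related list with the smallest p, the isozymes of the pairs, Zbtb7b and the genes whose profile over the arrays was nearest to the members. Prpsap1, Prpsap2, Adss, Adssl1, Nme1 and Myc fall outside this rule and were chosen after their values were seen. The values of 1 kinase gene are not reported here.

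What samples of the same replicate number share is not stated in the methods. After the genotype means were subtracted, same-numbered WT and KO arrays correlated with r = 0.22, 0.165, 0.30 and 0.28, against a mean of -0.079 for different numbers, so the numbers were taken to pair the samples. Subtracting the genotype means nearly fixes the mean for different numbers once that for the same numbers is known. The value of -0.079 is thus no separate support for pairing. The pairing was read from the same arrays, so the adjusted p-values with the block hold only if it is right. The alternatives were scaling to the 75th percentile, normexp with an offset of 50 on the median spot and background signals, the authors' table, the mean of a gene's probes, no filter on dim probes, unmatched probes kept, the replicate block, the methods' t-test with Benjamini-Hochberg adjustment, and leaving out each array. Normexp was run on median signals because mean signals were not among the columns used here.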

Additional observations from a re-analysis of the deposited data

Results flagged for a closer look

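Among 80 groups of 4 arrays checked for 40 genes, 1 array lay far from the other 3 by Dixon's criterion in 2 groups, both of synthesis enzymes, and chance alone meets the criterion in about 1 group in 20. Cad measured 10.56 in KO replicate 4, against 10.02 to 10.06 in the other KO glands. Without that array Cad was lower in KO by a log2 difference of -1.19 (limma adjusted p = 0.0196). Impdh2 measured 10.67 in KO replicate 1, against 10.99 or more in the other KO glands, and without it the difference was -0.34 (limma adjusted p = 0.0965). The causes were not tested.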

How the results depend on the processing

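Of 10 enzymes, 7 fell as reported. The count was 4 by the methods' t-test (8 at an unadjusted p under 0.05) and 4 with dim probes kept, and ranged from 1 to 7 when an array was left out. No enzyme rose under any setting, and at an unadjusted p under 0.05 limma had 9 lower and 0 higher. The fallen genes over all genes numbered 796 by the methods' t-test and 249 to 1682 with an array left out (1266 as reported). The risen genes numbered 593 by the methods' t-test, 1642 with unmatched probes kept, where more genes were tested, and 266 to 1388 with an array left out (1065 as reported). Lower genes were 54.3% of the calls as reported and between 48.8% and 58.9% in other settings with all arrays. Of the other 59 nucleotide genes, 12 fell and 1 rose as reported. The fallen numbered 6 by the methods' t-test and 3 to 18 with an array left out. The risen numbered 0 with normexp, 2 with the mean of a gene's probes, 2 with the replicate block and 0 to 4 with an array left out. The replicate block changed the calls of Dhodh, Umps and Impdh2 and of no other enzyme.

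The sign of some uncalled pair ratios turned. Cad to Dhodh, which ran from -0.53 to 0.14 with an array left out, was 0.060 without WT replicate 1, 0.14 without WT replicate 3 and 0.075 without KO replicate 2. Impdh2 to Impdh1, from -0.23 to 0.026, was 0.026 without WT replicate 1 and 0.0070 without KO replicate 1. Prps1 to Prps2, from -0.14 to 0.27, was -0.014 with 75th percentile scaling, -0.085 with normexp, -0.14 without WT replicate 4, -0.058 without KO replicate 1 and -0.087 without KO replicate 3. The causes were not tested. With 4 arrays per genotype, each array carried much of the estimate of the spread.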
